A study of Mus musculus with 22 samples.

Results

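The unfolded protein response genes were read in sorted mouse lung epithelial cells (ECs) as 10 listed genes, Hspa5, Hsp90b1, Xbp1, Atf4, Atf6, Ddit3, Ern1, Eif2ak3, Dnajb9 and Herpud1. Their symbols were matched to Ensembl identifiers, and each was found once among the 54373 genes of each count table. All 10 passed the filter on low counts at steady state, where 15547 protein-coding genes were tested, after HDM, where 14161 were tested, and over both tables together, where 16639 were tested. The ECs were live cells labelled CD45-EpCAM+, which the study also gated as CD31-, sorted from the lungs of WT (C57BL/6), AhR-/- (labelled AhR-KO) and CYP1B1-/- (labelled CYP1B1-KO) mice, both knockouts being constitutive and kept on the C57BL/6 background. Mice of both sexes older than 7 weeks were used, and no age is given per library. At steady state, naive mice gave 4 WT, 3 AhR-/- and 3 CYP1B1-/- libraries. In the HDM state, mice were sensitized intranasally with house dust mite (HDM) extract of Dermatophagoides farinae, challenged on 4 consecutive days and sampled 72 h after the last instillation, with 4 libraries per genotype. The states were deposited as separate runs, so HDM and the run cannot be told apart. The labels do not say that libraries of a group came from separate animals, so p-values measure the spread between these libraries, which may in part be technical.

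The unfolded protein response is how a cell answers unfolded proteins in the endoplasmic reticulum (ER). It is read by 3 sensors in the ER membrane: IRE1, encoded by Ern1, which splices the Xbp1 mRNA so that it yields an active transcription factor; PERK, encoded by Eif2ak3, a kinase of eIF2 whose activity slows translation and favours that of Atf4; and ATF6, which is cut in the Golgi and then moves to the nucleus. Downstream stand the transcription factor CHOP, encoded by Ddit3, the ER chaperones BiP (Hspa5), which also binds the sensors, and GRP94 (Hsp90b1), the BiP co-chaperone ERdj4 (Dnajb9), and Herpud1, a membrane protein of ER-associated degradation. Secretory ECs such as alveolar type 2 and goblet cells and antibody-secreting plasma cells rely on this pathway. Gene counts give mRNA levels only: Xbp1 splicing, kinase activity and ATF6 cleavage were not measured here.

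Promoter sequences of 9 of the 10 genes were found in RefSeq (GRCm38.p6), all but Atf6. Shown are the 250 bases before the start of 3 genes that hold a known response element, Hspa5 (chr2:34771840-34772089, plus strand), Hsp90b1 (chr10:86705445-86705694, minus strand) and Herpud1 (chr8:94386179-94386428, plus strand). They are followed by the 3 genes that passed the test in AhR-/- ECs after HDM, Dnajb9 (chr12:44210069-44210318, minus strand), Ddit3 (chr10:127290543-127290792, plus strand) and Eif2ak3 (chr6:70844265-70844514, plus strand). The starts are those of RefSeq and can differ from the Ensembl gene bounds given below: the Dnajb9 window lies within the Ensembl gene, and those of Hspa5, Hsp90b1 and Ddit3 overlap theirs. Each runs 5' to 3' along its gene, with motif matches in capitals.
Hspa5: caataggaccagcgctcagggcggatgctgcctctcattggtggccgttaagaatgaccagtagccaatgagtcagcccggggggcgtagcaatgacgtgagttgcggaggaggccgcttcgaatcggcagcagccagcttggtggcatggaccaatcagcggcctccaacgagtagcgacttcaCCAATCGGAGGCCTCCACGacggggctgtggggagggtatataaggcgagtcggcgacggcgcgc
Hsp90b1: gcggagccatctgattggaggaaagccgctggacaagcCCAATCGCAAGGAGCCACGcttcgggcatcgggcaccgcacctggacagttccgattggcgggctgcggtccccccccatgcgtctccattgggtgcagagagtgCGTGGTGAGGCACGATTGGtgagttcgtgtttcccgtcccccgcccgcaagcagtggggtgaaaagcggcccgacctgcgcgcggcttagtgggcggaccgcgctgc
Herpud1: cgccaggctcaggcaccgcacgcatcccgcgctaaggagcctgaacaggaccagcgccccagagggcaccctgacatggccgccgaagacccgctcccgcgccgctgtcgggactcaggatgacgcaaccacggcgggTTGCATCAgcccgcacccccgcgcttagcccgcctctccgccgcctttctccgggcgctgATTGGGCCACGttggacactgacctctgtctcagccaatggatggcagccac
Dnajb9: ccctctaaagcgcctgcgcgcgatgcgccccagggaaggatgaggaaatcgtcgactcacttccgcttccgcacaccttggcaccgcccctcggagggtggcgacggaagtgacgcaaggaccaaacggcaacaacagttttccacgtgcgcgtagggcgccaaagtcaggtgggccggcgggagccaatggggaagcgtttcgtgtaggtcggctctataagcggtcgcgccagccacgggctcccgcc
Ddit3: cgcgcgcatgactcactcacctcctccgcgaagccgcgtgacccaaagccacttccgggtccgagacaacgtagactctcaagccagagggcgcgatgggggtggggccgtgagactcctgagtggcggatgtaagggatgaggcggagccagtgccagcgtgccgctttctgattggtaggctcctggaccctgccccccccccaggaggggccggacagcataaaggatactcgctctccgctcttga
Eif2ak3: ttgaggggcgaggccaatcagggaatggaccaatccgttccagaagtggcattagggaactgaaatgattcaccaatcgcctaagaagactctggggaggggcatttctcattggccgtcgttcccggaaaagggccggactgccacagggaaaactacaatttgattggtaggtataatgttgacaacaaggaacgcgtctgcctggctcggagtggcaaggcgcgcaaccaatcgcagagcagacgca

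The motifs were searched on both strands over the 300 bases of each of 32851 promoters, the 250 bases shown and 50 bases past the start, and positions count back from the start. The ER stress response element ERSE, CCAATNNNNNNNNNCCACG, lay at -65 to -47 in Hspa5 and at -212 to -194 and, on the opposite strand, -107 to -89 in Hsp90b1. It was present in 39 promoters (0.119%), among them 2 of the 9 matched genes. The related ERSE-II, ATTGGNCCACG, lay at -52 to -42 in Herpud1 and in 12 promoters in all (0.0365%). Herpud1 also held TGATGCAA, a C/EBP-ATF element, on the opposite strand at -112 to -105 (294 promoters, 0.895%). The exact letters TGACGTGG, a core of the XBP1 and ATF6 element UPRE (222 promoters, 0.676%), were in none of the 9. No other form of this core was searched, and the printed Hspa5 sequence holds the near match TGACGTGA. The xenobiotic response element TNGCGTG, a binding motif of AhR, was in 1664 promoters (5.07%) and, of the 9, in Atf4, at -44 to -38. In the windows of Dnajb9, Ddit3 and Eif2ak3, none of these 5 letter patterns was found. A match describes letters only, and binding was not measured.

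The libraries held between 9654825 and 17878442 counts. The predicted gene Gm10800 took from 9.54% to 29.2% of them at steady state and from 0.00819% to 71.9% after HDM, and with 6 dominant predicted genes set aside 1180756 to 16447855 counts were left. The listed genes had at least 20 reads in each library (Ddit3 in CYP1B1-/- HDM replicate 2). Levels are CPM on TMM-scaled library sizes, set within a table unless said otherwise, and 3 counts stand for 0.0742 to 1.09 CPM. Reads of the targeted genes were not lost: Ahr was at 21.9 to 27.4 CPM at steady state where the label says AhR-/- and at 9.69 to 16.6 in WT, and Cyp1b1 was at 3.33 to 11.2 CPM in the HDM libraries labelled CYP1B1-/- and at 0.567 to 2.04 in WT. Reads on exons outside a deletion would still be counted, so genotypes are named here by their labels. AhR-/- HDM replicates 3 and 4 held reads of Y-linked Ddx3y (53.8 and 52.2 CPM), as all steady-state libraries did (27.9 to 136), while the other 10 HDM libraries had at most 0.0639 CPM. CYP1B1-/- steady-state replicate 2 stood apart with 0.141% mitochondrial counts, against 0.933 to 1.84% in the other steady-state libraries. The 5 epithelial markers (Epcam, on which cells were sorted, Cdh1, Krt8, Krt18 and Krt19) were detected in every library, at a summed 2000 to 2770 CPM at steady state and 405 to 760 CPM after HDM.

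Per length of exon, the chaperones Hspa5 and Hsp90b1 led and the sensor genes Ern1 and Eif2ak3 came last. At steady state, the mean levels over the 10 libraries were 362 CPM per kb for Hspa5 and 205 for Hsp90b1, and the ranges of these genes (262 to 444 and 169 to 235) did not overlap. Herpud1 at 105 CPM per kb and Xbp1 at 103 could not be ordered, with ranges of 78.1 to 142 and 82.5 to 146. Dnajb9 followed at 69.2 and Atf4 at 26.2 CPM per kb. The range of Dnajb9 (29.9 to 81.1) overlapped those of Atf4 (21 to 32.3) and Herpud1. Then came Atf6 at 10.9 and Ddit3 at 10.3, whose ranges overlapped. Ern1 (3.34 CPM per kb) and Eif2ak3 (2.57) stood lowest, again with overlapping ranges of 2.23 to 5.28 and 1.55 to 4.48. After HDM, the order of the first 6 was kept, from 128 CPM per kb for Hspa5, 99 for Hsp90b1, 72.7 for Herpud1, 51.4 for Xbp1 and 25.5 for Dnajb9 to 14.9 for Atf4. In that state the ranges of neighbours overlapped throughout these 6. Ddit3 had 5.01 CPM per kb and Atf6 3.34, above Eif2ak3 at 1.28 and Ern1 at 1.19. The scale was set within each table, so these levels do not show whether a gene rose or fell between the states. State comparisons are given below with TMM over both tables.

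At steady state, none of the 10 genes differed between AhR-/- or CYP1B1-/- and WT ECs past the threshold, an adjusted p of at most 0.05 in the quasi-likelihood test of edgeR, adjusted after Benjamini-Hochberg over all genes. Among all genes tested, 0% passed for AhR-/- and 0.0129% for CYP1B1-/-. No listed gene had an unadjusted p under 0.05 in either comparison, and DESeq2 and limma voom called 0 as well. The log2 fold changes lay between -0.20 and 0.26 for AhR-/- and between -0.32 and 0.35 for CYP1B1-/-, with medians of -0.04 and -0.09 beside -0.01 and -0.05 for all genes tested. In no listed gene were the libraries of a knockout all above or all below WT, against 4.43% of all genes tested for AhR-/- and 3.07% for CYP1B1-/-.

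Among the steady-state values of the genes that return below, Dnajb9 (ENSMUSG00000014905, mm10 chromosome 12, 44205559 to 44210326) had 197, 187, 165 and 207 CPM in WT, 182, 180 and 195 in AhR-/- and 76.3, 194 and 182 in CYP1B1-/- ECs. Ddit3 (ENSMUSG00000025408, chromosome 10, 127290774 to 127296288) had 22.2, 17.6, 16.5 and 14.0 CPM in WT, 20.8, 21.7 and 20.7 in AhR-/- and 3.82, 20.1 and 19.4 in CYP1B1-/- ECs. In both genes, the low value was that of CYP1B1-/- replicate 2, the library with few mitochondrial counts. It was also the lowest of the 10 steady-state libraries in Hspa5 (1110 CPM), Atf4 (49.6) and Atf6 (57.4) and the highest in Xbp1 (473), Ern1 (43.2), Eif2ak3 (27) and Herpud1 (330).

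**Figure D1:**
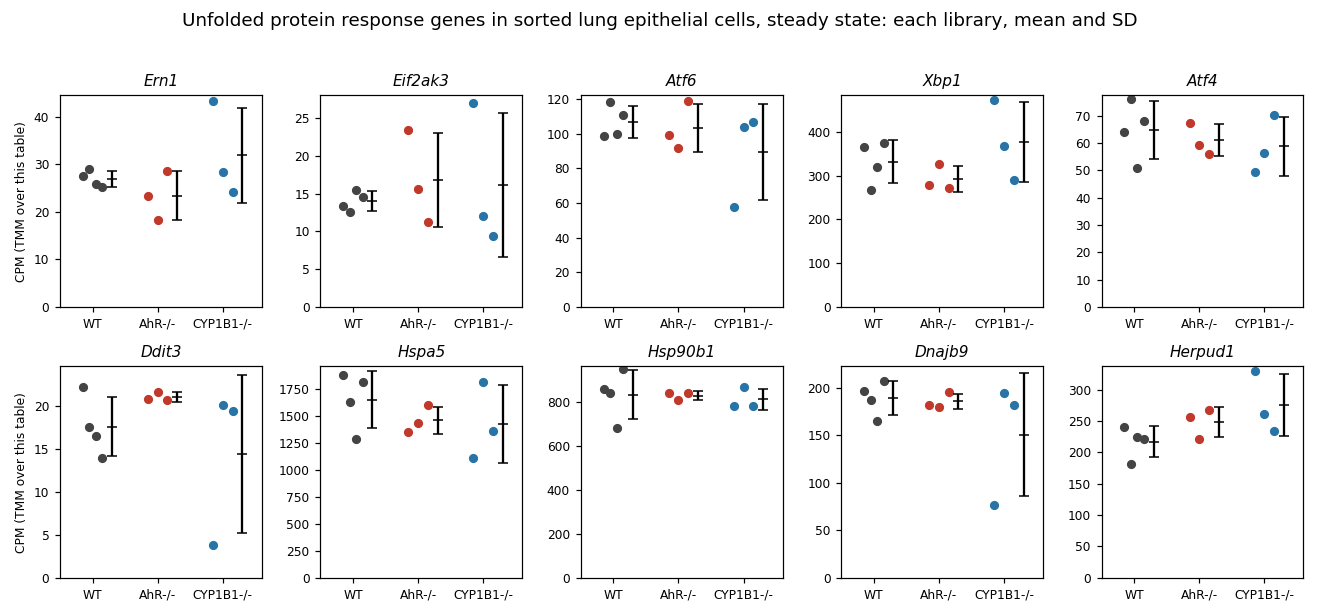
CPM of the 10 genes in each steady-state library (points), with the mean and SD of each genotype (bars, n = 4 WT, 3 AhR-/- and 3 CYP1B1-/-), on linear axes that start at 0. The genotypes overlap in every gene. In Ern1, Eif2ak3, Atf6, Ddit3 (3.82 CPM) and Dnajb9, the CYP1B1-/- point farthest from the others is that of replicate 2.

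After HDM, 3 of the 10 genes were higher in AhR-/- than in WT ECs, and none was lower: Ddit3, which encodes CHOP, by 2.44-fold, the BiP co-chaperone gene Dnajb9 by 1.69-fold and the PERK gene Eif2ak3 by 1.63-fold. The background in this comparison was high, with 22.1% of the genes tested past the threshold and 9.22% past it and higher. The median log2 fold change of the 10 genes was 0.15, beside -0.00 for all genes tested. All 3 calls were lost with no filter on low counts and with the replicate number as a block. They were lost as well without the 5 HDM libraries in which Gm10800 took most of the counts. The same held without AhR-/- replicate 1, 3 or 4 or WT replicate 1, 3 or 4, each left out alone. The call of Eif2ak3 was lost without WT replicate 2 too. In each of these 6 losses of all calls to a single library, 3 listed genes still had an unadjusted p under 0.05, and the log2 fold changes were 0.65 to 0.81 in Dnajb9, 1.03 to 1.36 in Ddit3 and 0.56 to 0.86 in Eif2ak3.

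Dnajb9 had 91.0, 71.8, 111 and 94.3 CPM in the AhR-/- libraries and 55.6, 57.4, 52.1 and 52.2 in WT. The lowest AhR-/- library stood above the highest WT library, and WT varied little, at 54.3 ± 2.62 CPM (SD, n = 4) against 92.1 ± 16.2 (SD, n = 4). The log2 fold change was 0.76 ± 0.20 (SE, adjusted p = 0.0283 by edgeR). It stayed between 0.60 and 0.92 under all 17 alternatives, with adjusted p from 0.000305 to 0.244. Of its stretches of 50 bases, 5.5% occur also in Gm6568, so part of its reads may be shared.

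Ddit3 had 14.3, 6.20, 22.2 and 15.8 CPM in AhR-/- and 6.69, 8.17, 5.51 and 3.48 in WT ECs. AhR-/- replicate 2 fell within the WT range, and the other 3 lay above it. The log2 fold change was 1.29 ± 0.37 (SE, adjusted p = 0.0338 by edgeR), with 0.84 to 1.60 and adjusted p from 0.00188 to 0.277 over the alternatives. On the opposite strand, Mars and Gm4189 overlap 4.73% of its exons, and the methods do not say that strand was used in counting.

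Eif2ak3 (ENSMUSG00000031668, chromosome 6, 70844515 to 70905245) had 12.1, 8.18, 12.4 and 9.81 CPM in AhR-/- and 7.48, 5.90, 7.75 and 4.71 in WT ECs. On this scale the groups did not overlap, as was the case for 24.9% of all genes tested. With TMM over both tables they did, at 11 to 17.5 against 5.64 to 11.8 CPM. The log2 fold change was 0.70 ± 0.23 (SE, adjusted p = 0.0428 by edgeR), with 0.56 to 0.86 and adjusted p from 0.0157 to 0.244 over the alternatives. The antisense gene Gm43292 overlaps 8.05% of its exons.

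The other 2 sensor genes did not pass edgeR's test. Ern1 (ENSMUSG00000020715, chromosome 11, 106394650 to 106487852) had 9.85, 9.14, 13.1 and 13.3 CPM in AhR-/- and 6.91, 9.31, 7.55 and 9.91 in WT ECs, a log2 fold change of 0.42 ± 0.23 (SE, adjusted p = 0.19 by edgeR). Limma voom with sample weights called Ern1 higher (0.59, adjusted p = 0.0241). These libraries overlapped here and not with TMM over both tables, where they had 12.3 to 17.7 against 10.4 to 11.9 CPM. Atf6 (ENSMUSG00000026663, chromosome 1, 170704674 to 170867771) had 32.3 ± 11.2 CPM in AhR-/- and 30.9 ± 6.12 in WT ECs (SD, n = 4 each).

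Nor did the transcription factors Xbp1 and Atf4. Atf4 (ENSMUSG00000042406, chromosome 15, 80255184 to 80257541), which acts upstream of Ddit3, had 30.3, 42.4, 16 and 21.5 CPM in AhR-/- and 49.1, 29.5, 54.5 and 42.5 in WT ECs. Its log2 fold change was -0.66 ± 0.34 (SE, adjusted p = 0.168 by edgeR), opposite in sign to that of Ddit3, and limma voom with sample weights called it lower (-1.10, adjusted p = 0.00753). Xbp1 (ENSMUSG00000020484, chromosome 11, 5520659 to 5525893) had 163, 132, 171 and 163 CPM in AhR-/- against 208, 162, 233 and 189 in WT ECs, a log2 fold change of -0.33 ± 0.29 (SE, adjusted p = 0.424 by edgeR).

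Of the chaperones, Hspa5 (ENSMUSG00000026864, chromosome 2, 34771970 to 34777547) had 672, 377, 672 and 650 CPM in AhR-/- and 614, 455, 696 and 508 in WT ECs, means of 593 ± 144 and 568 ± 107 (SD, n = 4 each). Hsp90b1 (ENSMUSG00000020048, chromosome 10, 86690209 to 86705509), 10.3% of whose exons overlap the antisense gene 1810014B01Rik, had 435, 326, 331 and 318 against 416, 326, 533 and 527 CPM, a log2 fold change of -0.35 ± 0.31 (SE, adjusted p = 0.434 by edgeR). Herpud1 (ENSMUSG00000031770, chromosome 8, 94386438 to 94395377) had 283, 101, 224 and 186 CPM in AhR-/- against 197, 158, 172 and 147 in WT ECs, a log2 fold change of 0.24 ± 0.32 (SE, adjusted p = 0.635 by edgeR). AhR-/- replicate 2 was the lowest library of its group in 8 of the 10 genes, Hspa5 and Herpud1 among them. Hspa5, Hsp90b1 and Herpud1, the genes whose printed promoters hold an ERSE or ERSE-II, were not called in this comparison. Of all genes tested 22.1% were called, and a link between motif and call was not tested.

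**Figure D2:**
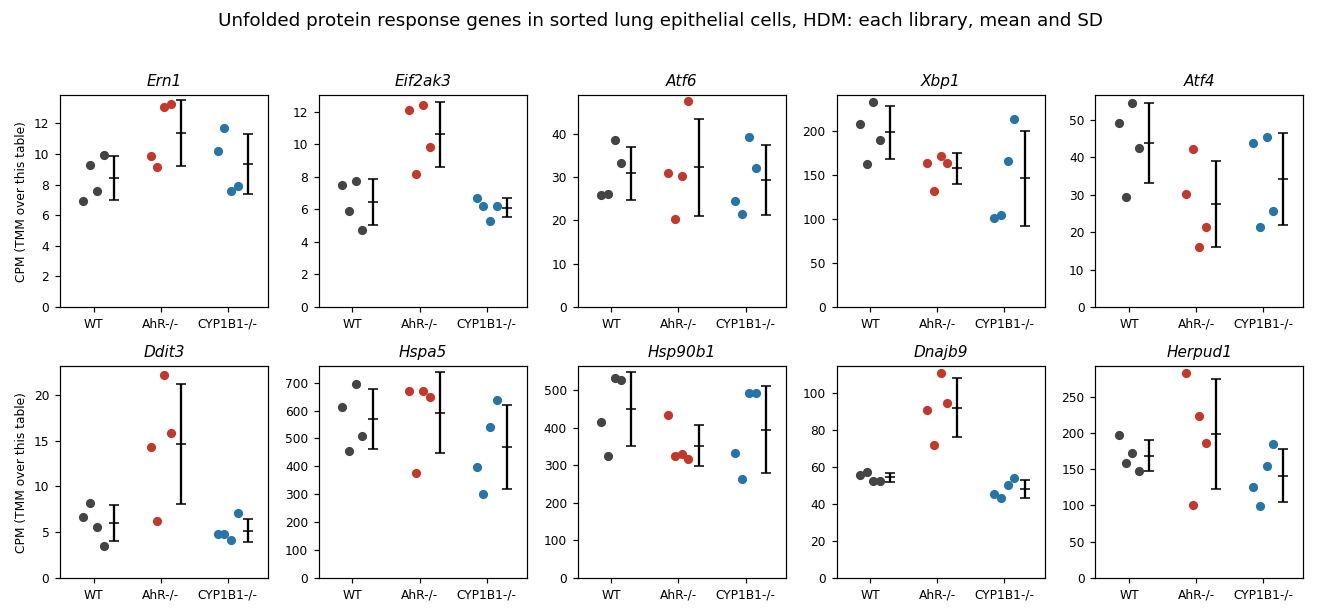
CPM of the 10 genes in each HDM library (points), with the mean and SD of each genotype (bars, n = 4 each), on linear axes that start at 0. Dnajb9 in AhR-/- ECs (71.8 to 111 CPM) lies above all WT (52.1 to 57.4) and CYP1B1-/- (43.1 to 54.2) libraries, while the genotypes overlap in Hspa5 and Atf6.

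Cell type markers differed between the same HDM libraries. The summed level of 6 alveolar type 1 markers was 2460 to 15100 CPM in AhR-/- (median 9560) and 521 to 4200 in WT (median 2180). Goblet cell markers (4 genes) were at 140 to 562 CPM in AhR-/- and 26.7 to 376 in WT, and club cell markers (4 genes) at 1270 to 5570 and 163 to 1630. The 5 pan-hematopoietic markers were at 57.7 to 411 CPM in AhR-/- and 885 to 2070 in WT, without overlap, and the 4 immunoglobulin constant genes at 100 to 896 and 952 to 3180. Plasma cell markers (4 genes) were at 39.0 to 406 and 228 to 659 CPM, with a marker at 0 reads in 2 AhR-/- libraries. The 5 epithelial markers were at 563 to 760 CPM in AhR-/- and 405 to 543 in WT, without overlap, the 4 ciliated cell markers at 66.9 to 134 and 41.8 to 72.2, and the 7 alveolar type 2 markers at 5680 to 49700 and 3760 to 15700. By edgeR, 1 of 5 epithelial, 1 of 4 club and 1 of 4 ciliated cell markers were higher, and 2 of 5 pan-hematopoietic and 1 of 5 tested macrophage and dendritic cell markers were lower. None of the 6 alveolar type 1, 7 alveolar type 2, 4 goblet and 4 plasma cell markers passed the threshold. AhR-/- replicate 2, where 8 of the listed genes were lowest in the group, had 3410 CPM of macrophage and dendritic cell markers (6 genes), against 97.5 to 210 in the other AhR-/- libraries. The part of cell composition in the differences above was not tested, and in such bulk samples fewer cells of a type and less RNA per cell cannot be told apart. The Y-linked reads move with genotype here as well: without AhR-/- replicates 3 and 4, the log2 fold changes were 0.60 for Dnajb9, 0.84 for Ddit3 and 0.66 for Eif2ak3, and no listed gene passed.

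In CYP1B1-/- ECs after HDM, no listed gene passed the test against WT, as was the case for all genes of the table (0% called by edgeR). No listed gene had an unadjusted p under 0.05, and DESeq2 and limma voom called 0. The log2 fold changes ran from -0.44 in Xbp1 to 0.14 in Ern1, 9 of the 10 below 0, with a median of -0.18 beside -0.01 for all genes. Their standard errors ran from 0.20 in Dnajb9 to 0.37 in Ddit3, and a p that misses the threshold does not show that the genotypes were alike. No listed gene separated the libraries, against 1.19% of all genes tested. Dnajb9 had 45.5, 43.1, 50 and 54.2 CPM, Ddit3 4.75, 4.76, 4.11 and 7.07 and Eif2ak3 6.68, 6.19, 5.29 and 6.20. Ddit3 and Eif2ak3 lay within the WT range, and 3 of the 4 Dnajb9 values lay below it.

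**Figure D3:**
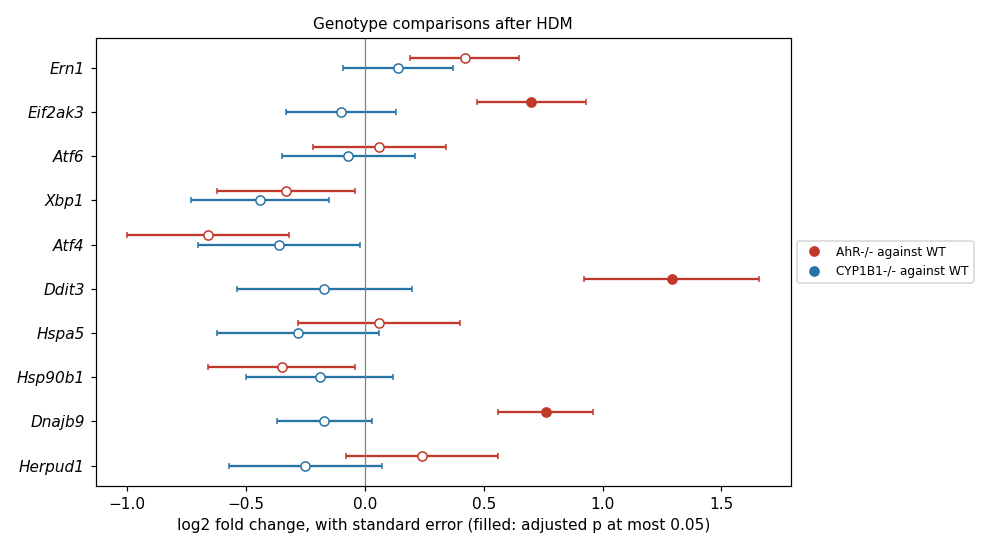
Log2 fold changes against WT after HDM for AhR-/- (red) and CYP1B1-/- (blue) ECs, with standard errors from edgeR, filled where the adjusted p is at most 0.05. The filled points are Eif2ak3 (0.70), Ddit3 (1.29) and Dnajb9 (0.76) in AhR-/- ECs, and both comparisons share the 4 WT libraries.

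Between the states, the listed genes that passed the test were lower after HDM. In WT ECs these were Ern1, Dnajb9 and Atf6, in CYP1B1-/- ECs Ern1 and Dnajb9, and in AhR-/- ECs none by edgeR (1 gene, Atf6, at an unadjusted p under 0.05, 0 calls with DESeq2 and 1 with limma voom, Herpud1). Over all genes tested, 38.4% passed in WT (19.4% lower), 33.4% in CYP1B1-/- (17.9% lower) and 20.6% in AhR-/- ECs. The CPM in this and the next paragraph are on TMM over both tables, which gives other values for the same libraries than TMM within a table: Dnajb9 in WT ECs was at 132 ± 18.8 CPM at steady state and 73.1 ± 12.1 after HDM (SD, n = 4 each) on the former scale and at 189 ± 18.1 and 54.3 ± 2.62 on the latter. The median log2 fold change of the 10 genes was -0.35 in WT, -0.12 in AhR-/- and -0.57 in CYP1B1-/- ECs, beside -0.11, -0.05 and -0.02 for all genes.

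Ern1 had 18.2, 19.7, 17.8 and 19.2 CPM in steady-state WT and 10.9, 10.4, 11.3 and 11.9 after HDM, 2 narrow groups far apart, with a log2 fold change of -0.75 ± 0.22 (SE, adjusted p = 0.00827 by edgeR). The call was lost with library sizes outside the dominant predicted genes (-0.58, adjusted p = 0.0574). In CYP1B1-/- ECs it had 30.5, 21.5 and 17.6 CPM at steady state and 10.5, 14.1, 11.3 and 12.2 after HDM, and its log2 fold change was -0.95 ± 0.23 (SE, adjusted p = 0.00243 by edgeR). Without CYP1B1-/- steady-state replicate 2 that change was -0.50 (adjusted p = 0.0881). In AhR-/- ECs, Ern1 had 16.2, 12.9 and 21 against 14.3, 12.3, 16.4 and 17.7 CPM, with overlap. Dnajb9 had 130, 127, 113 and 158 CPM in steady-state WT and 88.0, 64.2, 77.8 and 62.5 after HDM, a log2 fold change of -0.85 ± 0.28 (SE, adjusted p = 0.0196 by edgeR). It passed no longer without WT steady-state replicate 4 (-0.75, adjusted p = 0.0576) or WT HDM replicate 4 (-0.78, adjusted p = 0.0512). In CYP1B1-/- ECs it had 53.9, 147 and 133 against 46.7, 52.2, 74.7 and 83.9 CPM (log2 fold change -0.79 ± 0.30 SE, adjusted p = 0.0457 by edgeR), and was not called without CYP1B1-/- steady-state replicate 3 or 4 or HDM replicate 1 or 2 (-0.51 to -0.64). The call was also lost with no filter, with all genes, with library sizes outside the dominant predicted genes and without either set of HDM libraries left out together, and over all alternatives the value ran from -1.23 to -0.46. In AhR-/- ECs its values, 126, 127 and 143 against 132, 96.5, 139 and 126 CPM, overlapped.

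Atf6 had 65.0, 80, 68.8 and 84.7 CPM in steady-state WT and 40.9, 29.2, 57.5 and 39.7 after HDM, a log2 fold change of -0.83 ± 0.32 (SE, adjusted p = 0.0398 by edgeR). The call did not hold without WT steady-state replicate 2, 3 or 4 or WT HDM replicate 1, 2 or 4 (-0.63 to -0.87), nor with no filter on low counts or with all genes in place of protein-coding genes. The values in AhR-/- (-0.77, adjusted p = 0.11) and CYP1B1-/- ECs (-0.72, adjusted p = 0.109) did not pass, with ranges of -0.92 to -0.49 and -0.96 to -0.41 when a library was left out. Of these, only the fits without AhR-/- HDM replicate 4 (-0.92, adjusted p = 0.0366) and without CYP1B1-/- HDM replicate 3 (-0.96, adjusted p = 0.0396) called it. Atf6 was also called lower in AhR-/- ECs without the HDM libraries in which Gm10800 took most of the counts. Herpud1 moved the other way in WT, from 159, 124, 154 and 169 to 312, 176, 257 and 176 CPM, without overlap between the states, but its log2 fold change of 0.61 ± 0.33 (SE, adjusted p = 0.151) did not pass. DESeq2 called it higher (0.65, adjusted p = 0.0369), as did limma voom with sample weights (0.69, adjusted p = 0.0103). Ddit3 in WT was at -0.61 (adjusted p = 0.261 by edgeR), and limma voom called it lower. In CYP1B1-/- ECs, limma voom called Hspa5, Atf6 and Ddit3 lower as well. The log2 fold change of Herpud1 was 0.60 in AhR-/- (adjusted p = 0.242) and -0.07 in CYP1B1-/- ECs (adjusted p = 0.922). The AhR-/- value was 0.33 without AhR-/- HDM replicate 1 and 0.91 without replicate 2, where edgeR called it (adjusted p = 0.0378). The libraries of the states did not overlap in 5 of the 10 genes in WT (38.9% of all genes), in 1 in AhR-/- (35.9%) and in 1 in CYP1B1-/- ECs (31.5%).

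**Figure D4:**
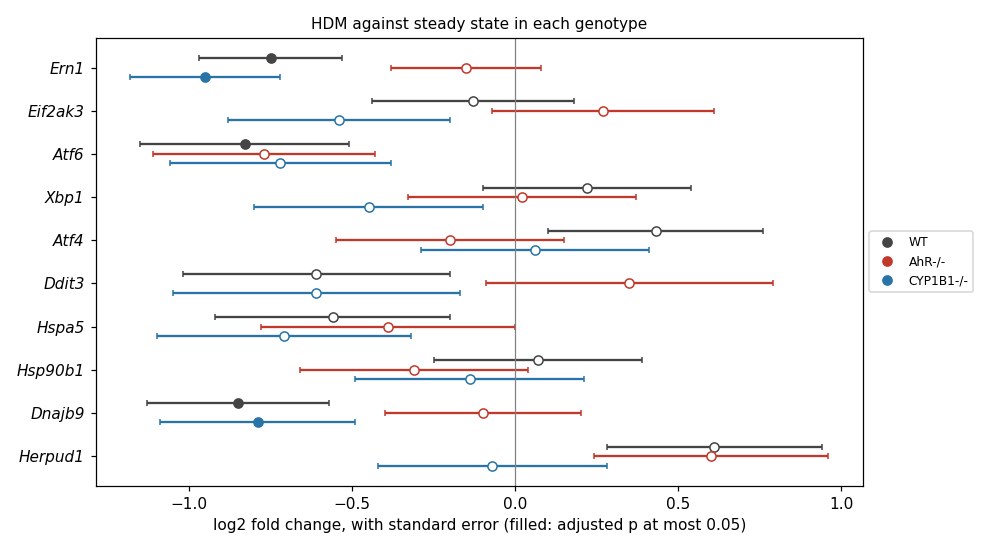
Log2 fold changes of HDM against steady state in WT (grey), AhR-/- (red) and CYP1B1-/- (blue) ECs, with standard errors from edgeR, filled where the adjusted p is at most 0.05. Ern1 and Dnajb9 are filled in WT (-0.75 and -0.85) and CYP1B1-/- ECs (-0.95 and -0.79) and lie near 0 in AhR-/- ECs.

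Marker levels moved with the state too. On the same scale, the 6 alveolar type 1 markers summed to 21600 to 25700 CPM in steady-state WT and 624 to 4730 after HDM (5 of 6 lower by edgeR). The 5 pan-hematopoietic markers summed to 4.19 to 129 and 989 to 3090 CPM (5 of 5 higher), and the 4 plasma cell markers to 0.690 to 2.92 and 255 to 984 CPM (4 of 4 higher). The 5 epithelial markers summed to 1360 to 2110 and 504 to 859 CPM (4 of 5 lower). Goblet cell markers were at 3.13 to 4.54 and 31.9 to 420 CPM (4 of 4 higher), and alveolar type 2 markers at 2320 to 5320 and 4500 to 24900 (4 of 7 higher). In CYP1B1-/- ECs, 5 of 5 pan-hematopoietic, 3 of 4 plasma cell, 4 of 4 goblet and 6 of 7 alveolar type 2 markers were higher, and 6 of 6 alveolar type 1 and 4 of 5 epithelial markers lower. In AhR-/- ECs the same lists had 5, 3, 4 and 6 markers higher and 0 and 1 lower. The mitochondrial share was 0.141 to 1.84% at steady state and 1.97 to 4.38% after HDM, without overlap. Ddx3y reads, present in all steady-state libraries, were at 0 in all WT and CYP1B1-/- HDM libraries. After HDM, alveolar type 1 markers were at 3310 to 20100 CPM in AhR-/- and 443 to 4190 in CYP1B1-/- ECs. The part of these shifts in the state comparisons was not tested, and cell composition, Y-linked reads, HDM and run cannot be told apart in WT and CYP1B1-/- ECs.

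Whether the genotype effect itself changed with HDM was tested as an interaction over all 22 libraries. No listed gene passed for AhR-/- or CYP1B1-/-, nor did any gene of the table (0% in both) with edgeR, and no listed gene had an unadjusted p under 0.05. The AhR-/- effect after HDM minus that at steady state was 0.96 on the log2 scale in Ddit3 (standard error 0.60), 0.75 in Dnajb9 (0.41), 0.60 in Ern1 (0.32) and 0.40 in Eif2ak3 (0.46), with adjusted p from 0.316 to 0.71. That of Eif2ak3 was 0.69 without AhR-/- steady-state replicate 1, 0.18 without AhR-/- steady-state replicate 4 and 0.22 without WT HDM replicate 4. DESeq2 called 0 of the 10. Limma voom with sample weights called 4, Ddit3, Ern1 and Dnajb9 higher and Atf4 lower, where it also called 5042 genes of the whole table. For CYP1B1-/-, the values ran from -0.68 in Herpud1 to 0.12 in Atf6, and DESeq2 and limma voom called 0.

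The rest of the pathway was read through 4 lists: sensors, proteases and kinases (12 genes), ER chaperones and foldases (19), translocation and ER-associated degradation (17), and targets of ATF4 and CHOP (17). In AhR-/- against WT ECs after HDM, each list held genes on both sides. The called genes were 4 of 12, 6 of 19, 6 of 17 and 8 of 17 in this order, to be read beside 22.1% of all genes tested (9.22% higher). Among the sensors, proteases and kinases, 2 of 12 were higher, the ER-bound transcription factors Creb3l2 (log2 fold change 1.36) and Creb3 (1.07). Lower were 2, the ATF6 relative Atf6b (-1.11) and Eif2ak1, another eIF2 kinase (-1.25). Of the chaperones and foldases, 5 of 19 were lower, with lowest p in the HSP70-type chaperone Hyou1 (-1.42), Sdf2l1 (-2.10) and the disulfide isomerase Pdia4 (-0.83), and 1 was higher, Agr2 (3.15), a disulfide isomerase of mucus-producing cells. The median of this list was -0.49, the farthest from 0 of the 4. Of the translocation and degradation genes, 5 of 17 were higher, led by the translocon subunit Sec62 (1.71), the mannosidase Edem3 (1.31) and Selenos (1.37), and 1 was lower, the translocon gene Sec61a1 (-0.92), with a median of -0.24. Of the ATF4 and CHOP targets, 4 of 17 were higher, with Asns (1.55), Cebpb (2.30) and Vldlr (2.32) at the lowest p, and 4 lower, with Sesn2 (-1.64), the eIF2 phosphatase subunit Ppp1r15b (-1.0) and Psat1 (-0.95), and the median was 0.13. The standard errors of these 18 genes were 0.25 to 0.98 and their adjusted p by edgeR 0.0261 to 0.0486, all near the threshold. In 12 of them the groups did not overlap, beside 24.9% of all genes tested. The 18 were picked by p in these same libraries, so this count is no separate evidence. None of the 18 was called under every alternative: the whole table had 0 calls without AhR-/- replicate 1, 3 or 4 or WT replicate 3 or 4, and 885 without WT replicate 1, beside 3129 with all libraries.

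**Figure D5:**
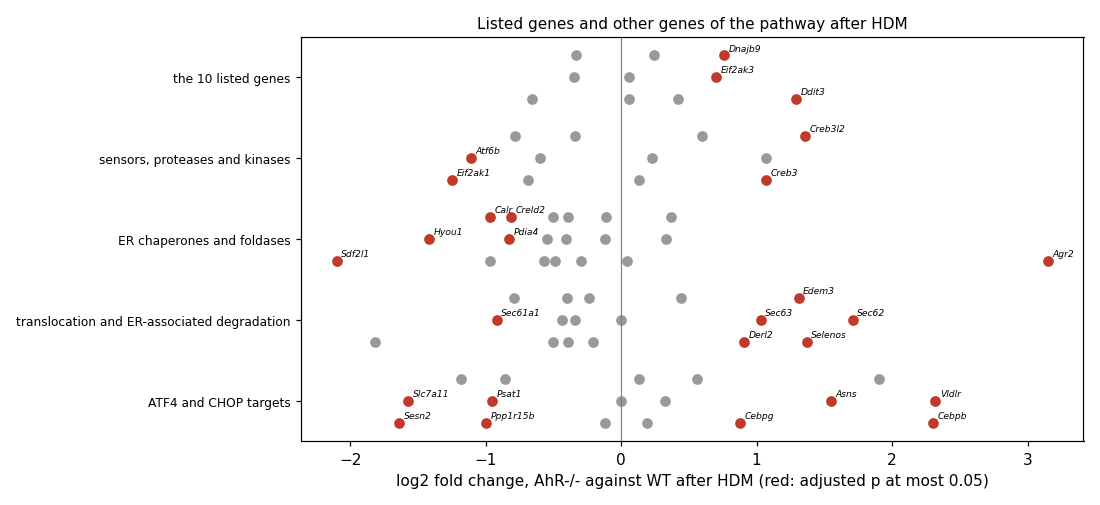
Log2 fold changes of AhR-/- against WT ECs after HDM, one point per gene, for the 10 listed genes and the 4 other lists, red and named where the adjusted p is at most 0.05 (vertical position within a list has no meaning). Called genes stand on both sides in each of the 4 other lists, from Sdf2l1 at -2.10 to Agr2 at 3.15, and on the higher side in the 10 listed genes.

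In the remaining genotype comparisons and in both interactions, edgeR called none of these 4 lists' genes. Between the states in WT ECs, the lists again moved both ways, by 2 higher and 4 lower of 12 sensors, proteases and kinases, 4 and 4 of 19 chaperones and foldases, 3 and 6 of 17 translocation and degradation genes, and 4 and 3 of 17 targets. Of all genes tested, 38.4% were called (19.4% lower). The medians of the lists were -0.16, 0.27, -0.42 and -0.07. Higher after HDM were Derl3 (3.83), Edem1 (1.19) and Sec61b (1.44) of degradation and translocation, the chaperone genes Sdf2l1 (2.95), Calr (1.85) and Creld2 (1.27), the targets Ddit4 (3.04), Atf3 (1.86) and Slc7a11 (1.60), and Eif2ak2 (0.93) and Eif2s1 (0.99). Lower were Creb3l2 (-2.77), Creb3 (-1.45) and Mbtps2, a protease that cuts ATF6 (-1.58). Edem3 (-2.80), Sec62 (-2.44), Sel1l (-1.45), Sil1 (-1.20), the BiP co-chaperone Dnajc3 (-1.37) and Ero1l (-1.12) were lower as well, as were the targets Vldlr (-2.90), Asns (-2.16) and Slc3a2 (-0.82). Adjusted p ranged from 6.5e-06 to 0.0335 for these 23 genes, and 20 of them were called under every alternative. Of the markers given above, 4 of 4 plasma cell, 5 of 5 pan-hematopoietic, 4 of 4 goblet and 4 of 7 alveolar type 2 markers were higher in this comparison. Lower were 5 of 6 alveolar type 1 and 4 of 5 epithelial markers. The part of these shifts in the lists was not tested.

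In CYP1B1-/- ECs, the numbers higher and lower after HDM were 2 and 5, 3 and 6, 3 and 8, and 3 and 7 in the same order of lists, where 33.4% of all genes tested were called (17.9% lower). Creb3l2 (-3.11), Mbtps2 (-1.54), Mbtps1 (-1.28), Dnajc3 (-2.34), Sil1 (-1.46), Ero1l (-1.73), Edem3 (-3.20), Sel1l (-1.79), Sec62 (-2.42), Vldlr (-3.0), Asns (-2.10) and Trib3 (-1.36) were lower. Eif2ak2 (1.28), Creb3l1 (1.40), Calr (1.66), Sdf2l1 (2.53), Agr2 (2.56), Derl3 (2.52), Sec61b (1.28), Edem1 (0.89), Ddit4 (2.43), Slc7a11 (1.55) and Psat1 (1.04) were higher. The value of Agr2 rested on few libraries, at -0.01 (adjusted p = 0.994) without the 5 HDM libraries rich in Gm10800 and 1.50 (adjusted p = 0.213) without CYP1B1-/- HDM replicate 2. Without CYP1B1-/- HDM replicate 3, Sec61b was at 0.77 (adjusted p = 0.179) and Psat1 at 0.65 (adjusted p = 0.17), and without CYP1B1-/- steady-state replicate 2 Ero1l was at -1.14. Of these 23 genes, 17 were called under every alternative. In AhR-/- ECs, the numbers were 1 and 5, 1 and 5, 1 and 5, and 3 and 2, where 20.6% of all genes tested were called. Mbtps1 (-1.29), Atf6b (-1.59), Creb3l2 (-1.44), Hyou1 (-1.69), Sil1 (-0.90), Ero1l (-1.12), Os9 (-1.89), Sel1l (-1.46), Edem3 (-1.30), Ppp1r15b (-1.20) and Trib3 (-0.97) were lower, and Creb3l1 (1.84), Agr2 (4.79), Sec63 (1.18), Atf5 (2.55), Nupr1 (2.70) and Ddit4 (2.22) were higher. Of these 17 genes, 7 were called under every alternative.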

How the data were processed

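RNA of sorted ECs was reverse transcribed with a template switch, amplified, tagmented and sequenced on a NextSeq500. Reads were trimmed (bbduk), aligned to mm10 (GSNAP) and assigned to Ensembl genes (featureCounts 2.0.0) by the authors; the submitters' processing notes also name bcl2fastq (2.19.1). The authors deposited raw counts, that is, unscaled reads for each gene. The settings for strand and for reads with several positions are not given in the sources used here. All columns matched a sample by title.

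Genes were annotated by identifier with GENCODE M21 (54147 of 54373 matched, 21793 protein-coding). In R 4.3.3 with edgeR 4.0.16, low protein-coding genes were removed by filterByExpr (min.count 10, min.total.count 15), TMM factors were computed, and the robust quasi-likelihood fit (glmQLFit, glmQLFTest) was adjusted after Benjamini-Hochberg over all genes tested, with 0.05 as the threshold. Genotypes were compared within a state's table, with its 3 genotypes in one fit, and states and interactions over all 22 libraries. The SE of a log2 fold change was its size over the square root of F. The alternatives were DESeq2 1.42.0, RLE, no filter, limma 3.58.1 voom with sample weights, all genes, a replicate block and each library left out. Leaving out AhR-/- HDM replicates 3 and 4, leaving out 5 HDM libraries with most of their counts on Gm10800, and library sizes outside the 6 dominant predicted genes (at least 1% of a library) without TMM were chosen after seeing the data.

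The 10 genes and the pathway and marker lists were chosen with earlier results of these data known. All 10 were tested in every comparison. In the text, only AhR-/- against WT ECs after HDM has values for each of the 10. Of each other pathway list, the 3 genes of lowest p per direction were named wherever any passed.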

Additional observations from a re-analysis of the deposited data

Results flagged for a closer look

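In the 40 groups of 4 libraries (10 genes in WT at steady state and in the 3 HDM groups), 2 held a library far from the others by Dixon's test, and chance flags about 5% of groups. Hspa5 in AhR-/- HDM replicate 2 was at 377 CPM, while the other 3 libraries of the group had 650 to 672. Hsp90b1 in AhR-/- HDM replicate 1 was at 435 CPM, while the other 3 had 318 to 331.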

How the results depend on the processing

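The 10 listed genes gave 0 calls under every alternative in both steady-state comparisons, in CYP1B1-/- against WT after HDM and in the CYP1B1-/- interaction. In AhR-/- against WT after HDM, 3 were called by edgeR and also with DESeq2, RLE, all genes and library sizes outside the dominant predicted genes. The count was 5 with limma voom and 0 with no filter, without AhR-/- HDM replicates 3 and 4, and without the 5 HDM libraries rich in Gm10800, and 0 to 3 when a library was left out. HDM against steady state gave 3 calls in WT (5 with voom, 4 with DESeq2, 2 with no filter and with all genes, 1 to 3 with a library left out), 0 in AhR-/- (1 with voom and without the Gm10800-rich libraries, 0 to 1 with a library left out) and 2 in CYP1B1-/- ECs. The last count was 5 with voom, 1 with no filter, all genes, library sizes outside the dominant genes, and without either set of HDM libraries, and 1 to 3 with a library left out. With library sizes outside the dominant genes, Ern1 was no longer called in WT between the states (-0.58, adjusted p = 0.0574) and Herpud1 was (0.73, adjusted p = 0.0256). The AhR-/- interaction gave 0 calls, and 4 with voom. Of the 103 fold changes named, 102 kept their sign under every alternative. The exception was Agr2 in CYP1B1-/- ECs between the states, at -0.01 without the Gm10800-rich libraries. The causes were not tested.

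Same-numbered libraries did not deviate together throughout (9 of 30 pairs correlated over 0.1, range -0.49 to 0.69), so the numbers were not taken as pairs. Some HDM pairs did: replicate 1 of AhR-/- with WT (0.63) and replicates 2 and 3 of CYP1B1-/- with WT (0.69 and 0.66). The remaining HDM pairs were at most at 0.02. With the replicate block, the AhR-/- against WT comparison after HDM had 0 of the 10 genes called (Dnajb9 0.74, adjusted p = 0.0591) and 1 gene of the whole table, and CYP1B1-/- against WT at steady state had 0 genes.

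Over the whole table, AhR-/- against WT after HDM had 3129 calls, 1802 with no filter, 6669 with voom, 0 without AhR-/- HDM replicates 3 and 4, 1948 without the Gm10800-rich libraries and 0 to 4137 with a library left out. At steady state, AhR-/- had 0 calls (13 with DESeq2, 11 with voom, 1 with library sizes outside the dominant genes, up to 1 with a library left out) and CYP1B1-/- 2 (5, 8 and, with a library left out, 0 to 4). The AhR-/- interaction had 0 (1236 with DESeq2, 5042 with voom, 530 without the Gm10800-rich libraries, up to 1017 with a library left out), CYP1B1-/- after HDM 0 (1 with DESeq2), its interaction 0 (up to 1 with a library left out), and HDM in AhR-/- ECs 3435 (1532 to 3935 with a library left out).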
